A study of Homo sapiens with 8 samples.

Results

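Ribosomal protein genes were measured in a human embryonic stem cell line, H9, and in 3 clonal lines. Members were taken by symbol from the platform annotation, as RPL or RPS with a number and at most one of the letters A, X or L, together with the stalk genes RPLP0, RPLP1 and RPLP2 and with RPSA. The annotation gave 120 such probes for 72 genes, of 48802 probes on the array. A probe was kept where its detection p was under 0.05 on at least 2 arrays, which left 115 probes of 70 genes. These 70 genes, among 19124 genes and unnamed probes tested, were 42 of the large subunit, 26 of the small subunit and the 2 stalk genes RPLP1 and RPLP2. The members not kept were RPL10, whose 2 probes were detected on 0 and 1 of 8 arrays, and RPL3L, detected on none. Probes that are not detected do not show that a gene is silent. RPLP0 and RPSA have no probe with a symbol of their own in the annotation and were not analysed here.

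The data are 8 Illumina bead arrays of 4 cell lines, with 2 arrays per line. The 2 control lines were parental H9 (WA-09), an established human embryonic stem cell line with no added DNA named in its label, and clone 3, labelled as a clonally derived wild-type line. The 2 ZFX lines were clones 2 and 5, which carried a bacterial artificial chromosome with the locus of ZFX, which encodes a zinc finger transcription factor, and had been picked by drug resistance. The study asked how cells with extra ZFX differ from cells without it. All lines were grown in standard conditions for such cells. Each clone is 1 clone, so what is particular to a clone cannot be told apart from what its treatment did, and whether drug was also applied to clone 3 is not stated. Whether a line's 2 arrays are separate cultures is not stated either, so the spread between them may be technical. P-values for a pair of lines measure only that spread. The fit of ZFX over control lines also takes in the spread between lines, with 2 lines on each side. It does so by a correlation shared by all genes, so a gene's own spread between lines counts only in part. The small number of arrays limits the precision.

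Cytosolic ribosomes are built from a small subunit, which reads the messenger RNA, and a large subunit, which joins amino acids and carries a flexible stalk that recruits elongation factors. The proteins are needed in matched amounts, and most of their messenger RNAs begin with a C followed by a run of pyrimidines, the 5′ terminal oligopyrimidine (TOP) sequence, through which growth signals set their translation. Pluripotent cells divide quickly and hold these messenger RNAs among their most abundant.

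The start of the transcript shows what most members have in common apart from their names. RefSeq promoter windows (GRCh38.p14) were found for 59 of the 70 members, matched by symbol because the array files name no build. A start with C followed by at least 4 bases that are C or T was present at an annotated start of 42 of these 59 members (71.2%), against 5.14% of 27305 genes. The run was 5 to 19 bases long, with a median of 8. The lines below give 10 bases before and 20 bases from the start for the members whose values are described most closely, with the run in capitals.
RPL34, chr4:108620566-108620595, + strand: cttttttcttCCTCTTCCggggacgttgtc
RPL14, chr3:40457329-40457358, + strand: ggtcttcttcCTTCTCgcctaacgccgcca
RPL21, chr13:27251548-27251577, + strand: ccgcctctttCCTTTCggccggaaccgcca
RPS23, chr5:82278335-82278364, - strand: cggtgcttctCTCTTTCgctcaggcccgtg
RPS24, chr10:78033853-78033882, + strand: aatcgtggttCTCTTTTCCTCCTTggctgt
RPS18, chr6:33272065-33272094, + strand: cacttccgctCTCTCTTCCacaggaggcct
RPS26, chr12:56041908-56041937, + strand: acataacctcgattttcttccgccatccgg
RPS27L, chr15:63157458-63157487, - strand: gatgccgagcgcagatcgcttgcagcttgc
RPL10L, chr14:46651762-46651791, - strand: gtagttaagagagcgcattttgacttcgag
The last 3 have no such run at their annotated start. For RPS26 this says only that the annotated start does not fall on one. RPL10L and RPS27L are the paralogs of RPL10 and RPS27.

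Signals were normalised on the log2 scale, on which a difference of 1 is a doubling. Probes detected per array ran from 19177 to 20588, and the median intensity before normalisation from 60.4 to 67.8. Arrays of a line correlated at 0.994 over all tested features and arrays of different lines at 0.981 to 0.992. All 70 members were detected on all 8 arrays. On the intensity scale their probes reached 28654 on the array where RPS27 was brightest, below the highest intensity on any array of 33248, and the dimmest tested member, RPL10L, read 66.8 to 122. ZFX itself was higher in the ZFX lines by 1.34 on the log2 scale (SE 0.163, limma adjusted p = 0.000241), reading 7.06 to 7.63 on their 4 arrays and 5.98 to 6.25 on the 4 control arrays. The pluripotency markers on the array were detected in all lines, 7 of 7, with summed intensities of 16440 to 17532. Primitive streak markers, which mark the first step out of pluripotency, summed to 1794 to 1918 in clone 3, with 4 of 5 detected on both arrays and MESP1 not detected. They summed to 101 to 171 in the other lines, where 2 of 5 were detected in H9 and none in clones 2 and 5. Endoderm markers summed to 559 to 577 in clone 3 and 142 to 162 elsewhere. Of these 5 markers 3 were detected on both arrays in clone 3 and 2 in each other line. GATA6 was not detected in any line. Fibroblast or mesenchyme markers summed to 5060 to 5198 in clone 3, 4389 to 4400 in H9 and 3397 to 4297 in the ZFX clones. Of these 5 markers 4 were detected on both arrays in every line. COL3A1 was not detected in any clone, while in H9 each marker was detected on at least 1 array. Neuroectoderm markers summed to 3354 to 3668 in the ZFX clones and 2477 to 2807 in the control lines. Of these 5 markers 4 were detected on both arrays in H9 and 3 in each clone. SOX1 was not detected in any line, and PAX6 was not detected in clones 3 and 5.

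No ribosomal protein gene passed the test between the ZFX lines and the control lines. Of the 70 members 0 were called by limma at an adjusted p under 0.05, with the line as a random block. In that fit 1.68% of all tested features were called, 1.12% higher and 0.56% lower. With each line reduced to its mean, 0 members and 0.0627% of all features were called. Before adjustment 3 members had p under 0.05, as had 1974 of all features. Log2 folds were negative for 52 members and positive for 18, with a median of -0.0508 against -0.00152 over all features, and they ran from -0.31 for RPL34 to 0.42 for RPL10L. With arrays scaled to their median in place of quantile normalisation the median was -0.143, against -0.0369 over all features, and without H9 replicate 1 it was -0.0303. The folds of 67 members lay within 0.25 of 0. Only 4.29% of members lay beyond that bound, against 17.4% of all features, with brightness not matched. A member's standard error was 0.0924 at the median, so changes of the median's size could not be resolved in a single member. The median over all members was not tested. The plot of ZFX over control folds shows the order of all members. In these bulk samples fewer cells of a type and less RNA per cell cannot be told apart.

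**Figure D1:**
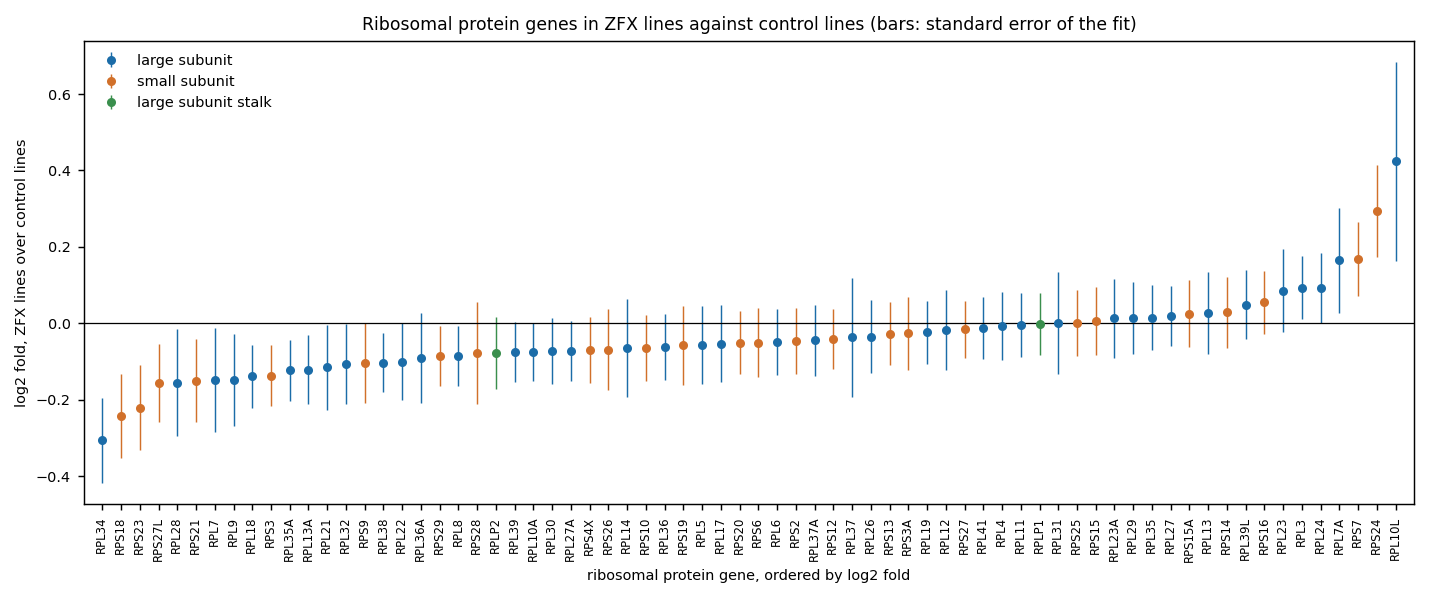
Log2 fold of each of the 70 ribosomal protein genes in the 2 ZFX lines over the 2 control lines (y axis), with genes ordered by fold along the x axis and coloured by subunit. Points are the fitted values and bars 1 standard error of the fit. Most points lie a little below 0, from -0.31 for RPL34 at the left to 0.42 for RPL10L at the right.

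Both subunits showed this narrow spread. The median log2 fold of ZFX over control lines was -0.0518 for the 42 large subunit genes, -0.0508 for the 26 small subunit genes and -0.0398 for the 2 stalk genes. The 42 members with a pyrimidine run at an annotated start had a median of -0.0543 and the 17 without one there a median of -0.0541. Some of the 17, such as RPL4, RPL9 and RPL27, have such a run shortly after the annotated start. The 17 can thus not be read as members without a TOP sequence. Values on the 4 ZFX arrays and the 4 control arrays did not overlap for 4 members, RPL35A, RPL38 and RPL39 lower and RPS7 higher, while 9.95% of all features did not overlap. The choice to name these 4 was made with their values in view.

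The 5 lowest members in the ZFX lines were RPL34 at -0.31 (SE 0.112, adjusted p = 0.252), RPS18 at -0.24 (adjusted p = 0.440), RPS23 at -0.22 (adjusted p = 0.530), RPS27L at -0.16 (adjusted p = 0.722) and RPL28 at -0.16 (adjusted p = 0.867), all by limma. RPS18 sits in the head of the small subunit and RPS23 at its decoding centre, while RPL34 and RPL28 belong to the large subunit. The 5 highest were RPL10L at 0.42 (adjusted p = 0.689), RPS24 at 0.29 (adjusted p = 0.357), RPS7 at 0.17 (adjusted p = 0.646), RPL7A at 0.16 (adjusted p = 0.845) and RPL24 at 0.09 (adjusted p = 0.893). With median scaling in place of quantile normalisation the value of RPL24 was -0.00443. Which control line was used decided which members were called. Against H9 alone 1 member was called, RPL34 at -0.48 (adjusted p = 0.00300), and 5.70% of all features were called. Against clone 3 alone 6 members were called, and 13.9% of all features. The 6 were RPL14, RPL21, RPS18, RPS23 and RPS27L lower and RPS7 higher. RPL34 was then at -0.14 (adjusted p = 0.372).

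The 4 lines were next compared in pairs, which is where single ribosomal protein genes did differ. These 6 comparisons share lines, so a line that stands apart appears in 3 of them, and their p-values measure only the spread between arrays of a line. Between clone 3 and H9, 9 members were called (12.9%), 6 higher and 3 lower in clone 3, against 19.8% of all features, 9.86% higher and 9.92% lower. Between clone 2 and H9 there were 8 (11.4%), 3 higher and 5 lower in clone 2, against 15.2%, 8.67% higher and 6.55% lower. Between clone 5 and H9 there was 1 (1.43%), lower in clone 5, against 5.53%, 3.13% higher and 2.4% lower. Clone 2 differed from clone 3 in 7 members (10%), 3 higher and 4 lower, against 16.3%, 8.89% higher and 7.36% lower. Clone 5 differed from clone 3 in 6 (8.57%), 1 higher and 5 lower, against 17.1%, 8.9% higher and 8.21% lower. The 2 ZFX clones differed in 1 member (1.43%), lower in clone 5, against 3.28%, 1.07% higher and 2.21% lower. No test of these shares was made. In clone 5 over clone 2 the order turns with median scaling, where 0.251% of all features were called and RPL10L still was. It also turns there with no intensity trend, without the detection filter, without either clone 2 array and without clone 5 replicate 2. In these settings 0.256%, 1.05%, 0.973%, 1.31% and 1.68% of all features were called, with 1 member called, or 2 in the last. Without that filter it turns too in clone 3 over H9 and in clones 2 and 5 over clone 3. There 8, 6 and 5 members and 7.91%, 6.56% and 6.89% of all features were called. The median fold of the members was between -0.0591 and 0.0197 in the 6 pairs, and between -0.188 and 0.0923 with median scaling, where the median of all features was between -0.0700 and 0.0725. Leaving out 1 array also moved these medians, such as that of clone 5 over clone 2 from 0.0197 to 0.0601 without clone 5 replicate 1 and that of clone 5 over H9 from -0.0396 to -0.0105 without H9 replicate 1.

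**Figure D2:**
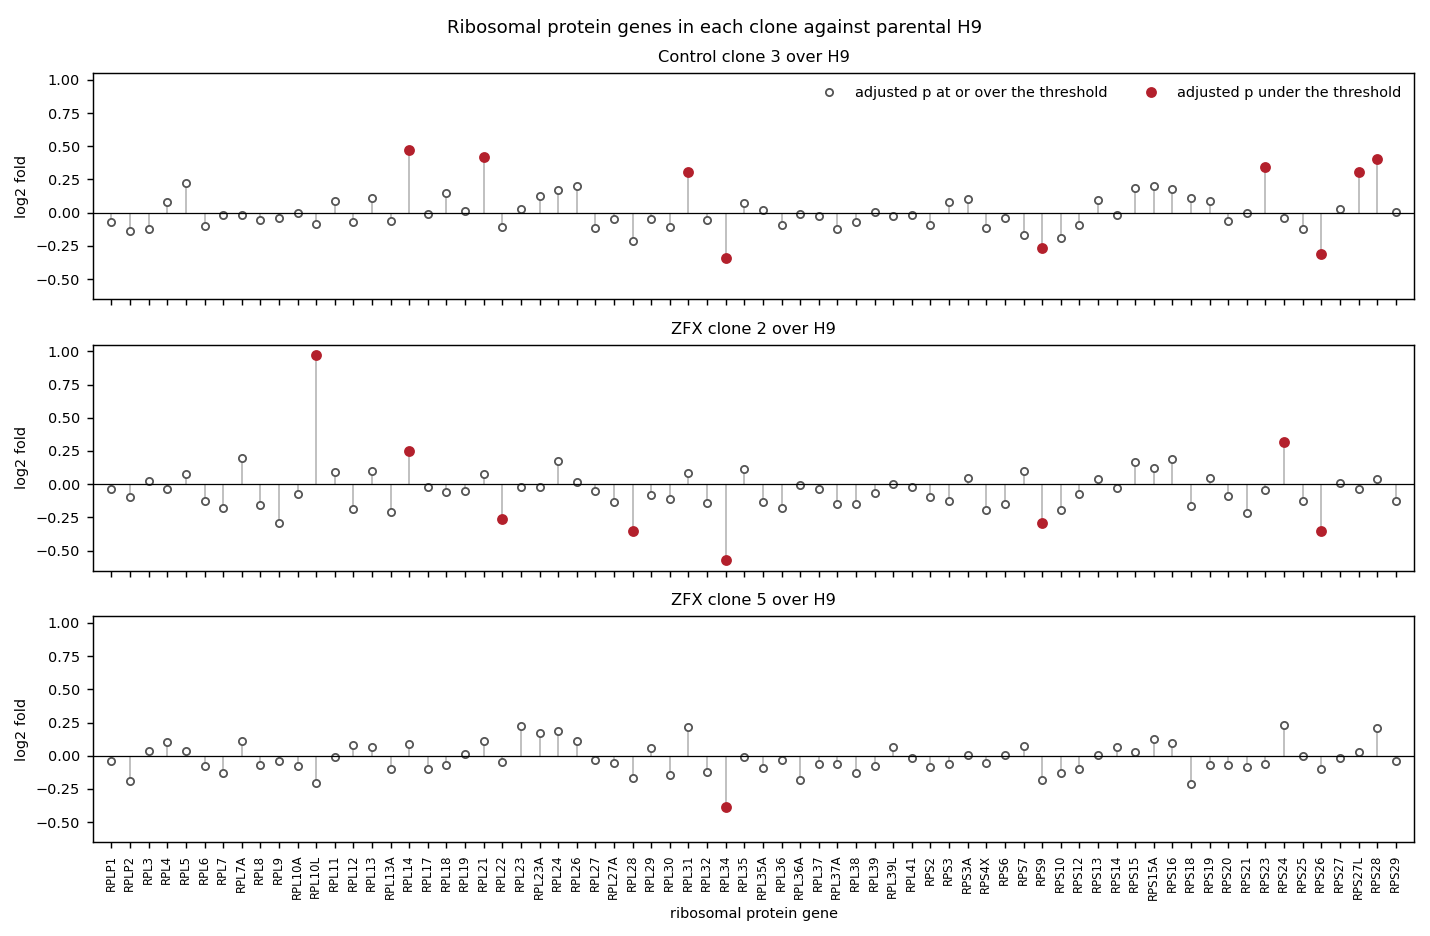
Log2 fold of each of the 70 ribosomal protein genes over parental H9 (y axis) in clone 3, ZFX clone 2 and ZFX clone 5 (top to bottom), with genes along the x axis by subunit and number. Filled points passed the test at an adjusted p under 0.05. RPL34 is filled in all 3 panels at -0.34, -0.57 and -0.38, and RPL10L at 0.97 in clone 2 only.

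RPL34, a large subunit protein encoded on chromosome 4, was lower than in H9 in every clone. It read 11.86 and 11.74 in H9, 11.47 and 11.43 in clone 3, 11.27 and 11.18 in clone 2, and 11.51 and 11.32 in clone 5. Both H9 arrays were above all 6 arrays of the clones, and the arrays of clone 2 were the lowest. RPL34 fell by 0.57 in clone 2 (SE 0.0829, limma adjusted p = 1.4e-05, 1.49-fold), by 0.34 in clone 3 (adjusted p = 0.00319) and by 0.38 in clone 5 (adjusted p = 0.00384). The difference between clone 5 and clone 3 was -0.04 (adjusted p = 0.808), and that between clone 2 and clone 3 -0.23 (adjusted p = 0.0568), which passed with cyclic loess or with probes detected on all arrays. The other kept RPL34 probe, tested singly, was lower in clone 2, at -0.47 (adjusted p = 0.000889) but not in clone 3, at -0.02 (adjusted p = 0.922), nor in clone 5, at -0.18 (adjusted p = 0.346). The call in clone 5 was also lost without H9 replicate 1 (-0.32, adjusted p = 0.0562) or without clone 5 replicate 2 (-0.29, adjusted p = 0.106).

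RPL10L showed the widest difference of any member with the background correction used here. It is an intronless paralog of RPL10 on chromosome 14, known in mouse to take the place of the X-linked gene in male germ cells. It read 5.29 and 5.15 in H9, 5.12 and 5.15 in clone 3, 6.40 and 5.98 in clone 2, and 5.10 and 4.93 in clone 5. Both arrays of clone 2 stood above the other 6. RPL10L was higher in clone 2 than in H9 by 0.97 (SE 0.173, limma adjusted p = 0.000194, 1.96-fold) and higher than in clone 3 by 1.05 (adjusted p = 3.77e-05). Clone 5 was lower than clone 2, at -1.18 (SE 0.173, adjusted p = 0.000113, 2.27-fold) and did not pass against H9, at -0.21 (adjusted p = 0.606). This dim probe depends on the background step for its size. Without background correction the differences were 0.47 from H9 and -0.56 between the ZFX clones, and in the authors' processed values they were 0.34 and -0.40, with adjusted p from 0.000118 to 0.000160. RPL10L has 1 kept probe, and neither RPL10 probe passed the detection filter, so the parent gene gives no comparison. The members most like it over the 8 arrays were RPL11 (Pearson r 0.528), RPS15 (0.476) and RPS7 (0.467), given as a description of arrays that share their lines.

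The 6 members called higher in clone 3 than in H9 were RPL14, RPL21, RPS23, RPS28, RPS27L and RPL31. RPL14, a large subunit protein, read 8.99 and 8.97 in H9, 9.48 and 9.42 in clone 3, 9.19 and 9.28 in clone 2, and 9.13 and 9.02 in clone 5. RPL21, also of the large subunit, read 11.06 and 10.94 in H9, 11.42 and 11.42 in clone 3, 11.04 and 11.11 in clone 2, and 11.06 and 11.15 in clone 5. RPS23 read 9.80 and 9.98 in H9, 10.26 and 10.21 in clone 3, 9.87 and 9.83 in clone 2, and 9.80 and 9.87 in clone 5. For all 3 genes the clone 3 arrays were the highest of the 8. RPL14 rose in clone 3 over H9 by 0.47 (SE 0.0860, limma adjusted p = 0.000172), RPL21 by 0.42 (adjusted p = 0.000269) and RPS23 by 0.34 (adjusted p = 0.00361).

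**Figure D3:**
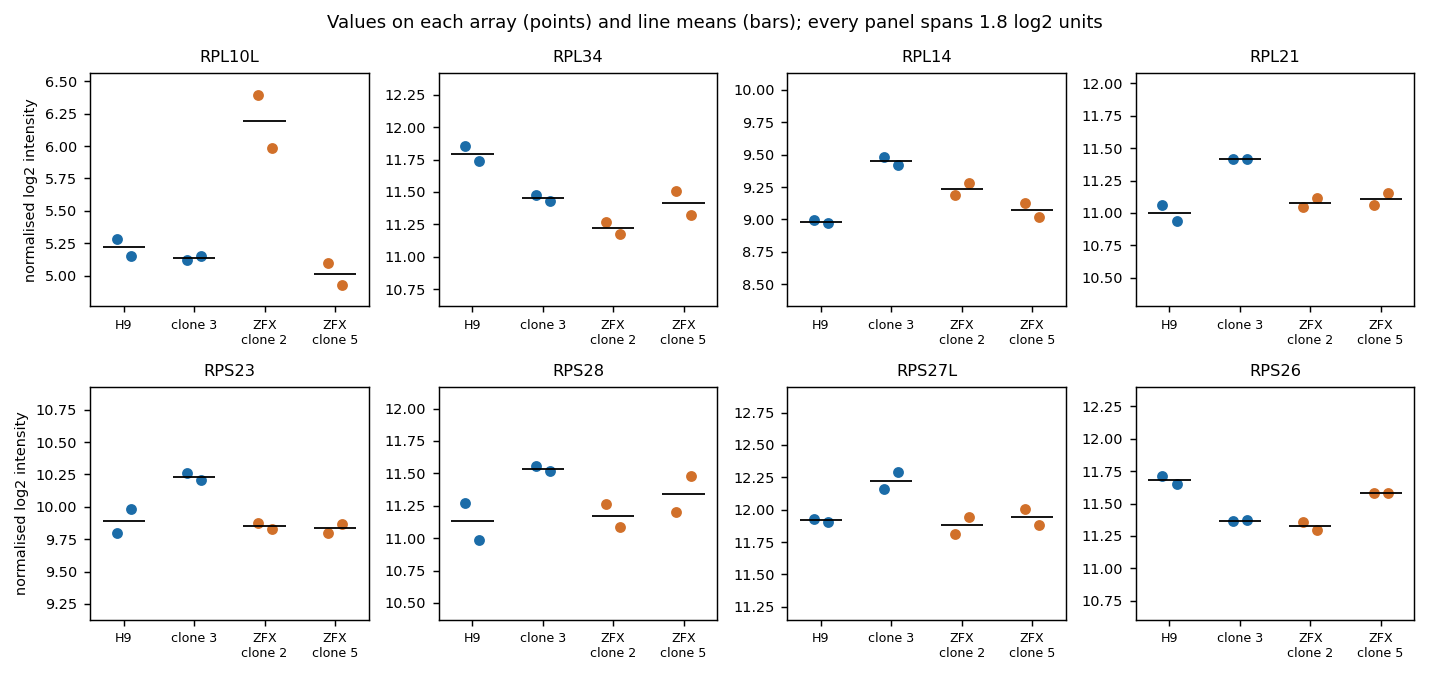
Normalised log2 intensity (y axis) of 8 ribosomal protein genes on each array, in H9 and clone 3 (blue) and ZFX clones 2 and 5 (orange). Points are arrays and bars line means, and all panels have the same span. RPL10L is high on both clone 2 arrays, RPL34 is highest in H9, and RPL21, RPS23 and RPS27L are highest in clone 3.

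The remaining genes high in clone 3 were RPS28, which lies near the exit of the messenger RNA channel, RPS27L and RPL31. RPS27L is a paralog of RPS27 that p53 is known to induce. RPS28 was higher by 0.41 (adjusted p = 0.00272), reading 11.55 and 11.52 in clone 3 and 11.27 and 10.99 in H9. RPS27L was higher by 0.31 (adjusted p = 0.00777), reading 12.16 and 12.29 in clone 3 and 11.93 and 11.90 in H9. RPL31 was higher by 0.31 (adjusted p = 0.0379), reading 11.95 and 12.25 in clone 3 and 11.94 and 11.64 in H9, so that its lower clone 3 value exceeded the higher H9 value by little. The summed levels of primitive streak, endoderm and fibroblast markers given above were also highest in clone 3. The markers MESP1, GATA6 and COL3A1 of these lists were not detected there. The part of such cells in these differences was not tested.

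Calls in clone 3 differed in how much they rested on 1 array. RPL14, RPL21, RPL34 and RPS26 passed against H9 with any array left out. RPL31 did not without H9 replicate 2 (0.16, adjusted p = 0.479) or clone 3 replicate 2 (0.15, adjusted p = 0.486). RPS23 did not without H9 replicate 1 (0.25, adjusted p = 0.0707) or clone 3 replicate 1 (0.32, adjusted p = 0.0515). RPS27L did not without H9 replicate 2 (0.29, adjusted p = 0.0570) or clone 3 replicate 2 (0.24, adjusted p = 0.126). RPS28 did not without H9 replicate 2 (0.26, adjusted p = 0.118). The other RPL14 probe was at 0.26 in clone 3 over H9 (adjusted p = 0.0861).

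Most of these genes were also called against clone 3 in a ZFX clone, in comparisons that use the same clone 3 arrays. RPS23 was lower, at -0.38 in clone 2 (adjusted p = 0.00140) and -0.40 in clone 5 (adjusted p = 0.000782), RPL21 was at -0.34 and -0.31 (adjusted p = 0.00286 and 0.00571), and RPS27L at -0.34 and -0.28 (adjusted p = 0.00345 and 0.0182). RPS28 passed in clone 2 only, at -0.36 (adjusted p = 0.00794), and was at -0.20 in clone 5 (adjusted p = 0.179). RPL14 passed in clone 5 only, at -0.38 (adjusted p = 0.00177), and was at -0.22 in clone 2 (adjusted p = 0.0869). Whether the 2 ZFX clones differ in these genes was tested directly, and none passed. RPS18 passed in clone 5, at -0.32 (adjusted p = 0.0203), with 11.93 and 12.31 in clone 5 against 12.40 and 12.48 in clone 3. It was at -0.13 (adjusted p = 0.472) without clone 5 replicate 1, the low array, at -0.36 (adjusted p = 0.0567) without clone 3 replicate 1 and at -0.28 (adjusted p = 0.157) without clone 3 replicate 2.

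Other calls against clone 3 also depended on an array. RPS27L was at -0.28 in clone 2 without clone 2 replicate 1 (adjusted p = 0.0841) or clone 3 replicate 2 (adjusted p = 0.0821). In clone 5 it was at -0.21 without clone 3 replicate 2 (adjusted p = 0.206) or clone 5 replicate 2 (adjusted p = 0.190). RPS28 in clone 2 was at -0.28 without clone 2 replicate 2 (adjusted p = 0.156) and at -0.34 without clone 3 replicate 1 (adjusted p = 0.0748). RPL21 in clone 5 was at -0.26 without clone 5 replicate 1 (adjusted p = 0.0736). RPS7, a small subunit protein, was higher in clone 2 by 0.26 (adjusted p = 0.0272) and in clone 5 by 0.24 (adjusted p = 0.0465). Its call in clone 5 was lost with any 1 of the 6 arrays of clones 2, 3 and 5 left out (0.17 to 0.30, adjusted p = 0.0565 to 0.342). Its call in clone 2 was lost without clone 2 replicate 1 (0.23, adjusted p = 0.172), clone 2 replicate 2 (0.29, adjusted p = 0.0760) or clone 3 replicate 1 (0.20, adjusted p = 0.272).

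RPS26 and RPS9 were lower than in H9 in clones 3 and 2. RPS26 contacts the messenger RNA upstream of the decoding site and is one of the genes mutated in Diamond-Blackfan anaemia, an inherited failure of red cell production. It read 11.71 and 11.65 in H9, 11.36 and 11.37 in clone 3, 11.36 and 11.30 in clone 2, and 11.58 and 11.58 in clone 5. Both H9 arrays were above the arrays of clones 3 and 2, with clone 5 between them. RPS26 fell by 0.31 in clone 3 (adjusted p = 0.00376) and by 0.35 in clone 2 (adjusted p = 0.00186), and in clone 5 it was at -0.10 (adjusted p = 0.565). The other RPS26 probe was at -0.15 and -0.14 and did not pass. RPS9 was lower, at -0.27 in clone 3 (adjusted p = 0.0260) and at -0.29 in clone 2 (adjusted p = 0.0186). The call in clone 3 was lost without H9 replicate 2 (-0.19, adjusted p = 0.279), clone 3 replicate 1 (-0.29, adjusted p = 0.0792) or clone 3 replicate 2 (-0.25, adjusted p = 0.141), and that in clone 2 without H9 replicate 2 (-0.21, adjusted p = 0.230) or clone 2 replicate 2 (-0.22, adjusted p = 0.221).

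In clone 2 against H9 the other calls were RPS24, RPL14, RPL22 and RPL28. RPS24, another Diamond-Blackfan anaemia gene, was higher by 0.32 (adjusted p = 0.0348), and its other probe was at -0.15 and did not pass. RPS24 was also higher in clone 2 than in clone 3, by 0.36 (adjusted p = 0.0155). RPL14 was higher by 0.25 (adjusted p = 0.0458), and its other probe was at -0.10 and did not pass. RPL22, whose loss in mouse mainly affects T cells, was lower, at -0.26 (adjusted p = 0.0341), and RPL28 at -0.35 (adjusted p = 0.0473). These 4 calls against H9 were lost with single arrays left out. RPS24 was at 0.25 (adjusted p = 0.219) without H9 replicate 1, 0.36 (adjusted p = 0.0872) without clone 2 replicate 1 and 0.28 (adjusted p = 0.209) without clone 2 replicate 2. RPL22 lost its call without any array of H9 or clone 2 (-0.28 to -0.23, adjusted p = 0.0612 to 0.168). RPL28 did without either H9 array, either clone 3 array or clone 2 replicate 1 (-0.42 to -0.24, adjusted p = 0.0523 to 0.353). RPL14 did without any array of H9, clone 2 or clone 3 (0.21 to 0.29, adjusted p = 0.0613 to 0.263). RPS24 against clone 3 was at 0.32 (adjusted p = 0.136) without clone 2 replicate 2 and at 0.18 (adjusted p = 0.395) without clone 3 replicate 2.

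Clone 5 had the fewest members called against H9, as it had the fewest of all features. Besides RPL34, its lowest members against H9 were RPS18 at -0.21 (adjusted p = 0.244) and RPL10L, and its highest were RPS24 at 0.23 (adjusted p = 0.241), RPL23 at 0.22 (adjusted p = 0.155) and RPL31 at 0.22 (adjusted p = 0.270). Against clone 3 its highest, besides RPS7, were RPS24 at 0.27 (adjusted p = 0.0788) and RPS26 at 0.21 (adjusted p = 0.0562). Between the ZFX clones the next members after RPL10L were RPL36A at -0.18 and RPL14 at -0.16 on the low side of clone 5, and RPL12 at 0.27, RPL9 at 0.25 and RPS26 at 0.25 on the high side, with adjusted p from 0.0710 to 0.422.

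Most of these calls also depended on the scaling of the arrays and on the variance model. With each array scaled to its median in place of quantile normalisation, RPL34 and RPL10L were called in clone 2 over H9 and RPL10L in clone 2 over clone 3 and in clone 5 over clone 2, and no other member in any pair. The folds of the lost calls mostly did not shrink: in clone 3 over H9, RPL14 was at 0.56, RPS28 at 0.47 and RPS23 at 0.44. RPS7 was among those with smaller folds, at 0.08 in clone 2 and 0.15 in clone 5 over clone 3. Fewer of all features were called too, 1.07% to 6.89% in the 5 pairs that involve H9 or clone 3. With variances not modelled on intensity, which leaves the folds as they are, the members called were RPL14 and RPL21 in clone 3 over H9, RPL34 and RPL10L in clone 2 over H9, RPL10L in both other pairs of clone 2, RPL14 and RPS23 in clone 5 over clone 3, and none in clone 5 over H9. Without the detection filter the calls lost were RPL31 in clone 3 over H9, RPL14, RPL22, RPL28 and RPS24 in clone 2 over H9, and RPS7 in both ZFX clones over clone 3. Cyclic loess ended those of RPL31, of RPL28 and of RPS7 in clone 5. The authors' processed values and intensities without background correction ended those of RPL14 in clone 2 over H9 and RPS7 in clone 5.

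Across the 4 lines the members varied less than all tested features after quantile normalisation, in a comparison not matched for brightness. That step gives every array the same set of values. With median scaling, the members' median deviation from their own means was 0.186 on H9 replicate 1 and -0.0744 on H9 replicate 2. It reached -0.174 on clone 2 replicate 2. The gaps, spreads and correlations below were not computed with that scaling. The median member probe read 77.6 to 95.1 times the background level of its array. How much of the difference goes with brightness was not tested. The gap between the highest and the lowest line mean was 0.183 at the median member and 0.321 at the median feature, and the standard deviation within a line was 0.0734 and 0.130. The gap was under 0.5 for 68 of the 70 members (97.1%), against 79.9% of all features, and the 2 beyond it were RPL10L at 1.18 and RPL34 at 0.57. In the authors' processed values the same RPL10L difference, between the ZFX clones, was -0.40, which is within this bound. The narrower gap between lines thus came with a narrower spread between arrays of a line. Among the 2415 pairs of members the median Pearson r over the 8 arrays was 0.0723, with quartiles of -0.243 and 0.379.

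**Figure D4:**
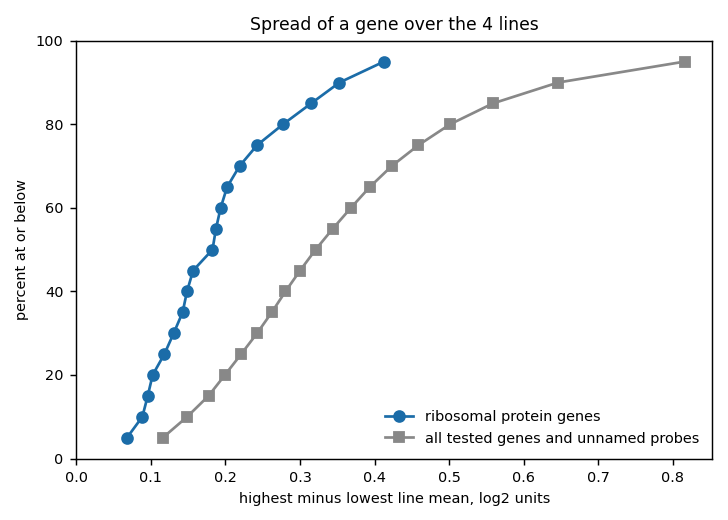
Gap between the highest and the lowest line mean (x axis, log2 units) against the percent of genes at or below it (y axis), for the 70 ribosomal protein genes (blue circles) and all 19124 tested features (grey squares), drawn from percentile 5 to 95. The median gap is 0.183 for the ribosomal protein genes and 0.321 for all features, after quantile normalisation and with brightness not matched.

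Other members with a known role beyond the ribosome, or tied to disease, did not pass in ZFX over control lines. RPL5 and RPL11, which with 5S RNA hold back MDM2, the p53 inhibitor, were at -0.06 and -0.00429 in ZFX over control lines, and RPL23, which also binds MDM2, was at 0.09 (adjusted p = 0.965, 0.998 and 0.942). The highest pair value of RPL5 was 0.22 in clone 3 over H9 (adjusted p = 0.0748). Of the Diamond-Blackfan anaemia genes, RPS24 at 0.29 and RPS26 at -0.07 did not pass here and were called in pairs of lines as given above. RPS19 and RPL35A were at -0.06 and -0.12, and RPS14, the gene of the 5q deletion syndrome, at 0.03, with adjusted p from 0.715 to 0.980. The stalk genes RPLP1 and RPLP2 were at -0.00246 and -0.08. The X-linked members RPL36A, RPL39 and RPS4X, which share their chromosome with ZFX, were at -0.09, -0.08 and -0.07 (adjusted p = 0.942, 0.902 and 0.939).

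The paralogs did not follow one pattern. RPL39L, the testis-enriched paralog of RPL39, a protein of the peptide exit tunnel, was at 0.05 in ZFX over control lines (adjusted p = 0.966) and between -0.03 and 0.10 in the 6 pairs. RPL39 was at -0.08 in ZFX over control lines. RPS27, the parent of RPS27L, was not called in any pair on its brightest probe, which is near the top of the scale. Another RPS27 probe was lower than in H9, at -0.26 in clone 3 (adjusted p = 0.0272) and -0.28 in clone 2 (adjusted p = 0.0212). RPL3, the parent of the undetected RPL3L, was at 0.09 (adjusted p = 0.865).

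Probes of 1 gene did not always agree, and probes for these genes may also bind transcripts of processed pseudogenes or other isoforms, which the files do not separate. Of the 70 members 32 had more than 1 kept probe, 77 probes in all. RPS29, a small subunit protein, had 4, of which the dimmest was higher than in H9 by 0.46 in clone 3 (adjusted p = 0.000626), 0.52 in clone 2 (adjusted p = 0.000274) and 0.71 in clone 5 (adjusted p = 9.23e-06). On the intensity scale this probe read 640 and 549 in H9 and 697 to 1120 in the clones, so that no clone array reached down to H9. The other 3 RPS29 probes were between -0.22 and 0.12 against H9 and did not pass. The dimmer RPL10A probe was higher in clone 3 than in H9 by 0.61 (adjusted p = 1.12e-05), where the brighter one was at -0.00371. The dimmer RPL37A probe was lower in clone 2 than in H9, at -0.67 (adjusted p = 0.00294), and the brighter one was at -0.15. Gaps over 0.5 between probes of a gene were otherwise seen for RPL9 in clone 3 over H9, RPS15 in clone 2 over H9 and RPL32 in clone 2 over clone 3.

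Short sequence motifs in the promoter windows (250 bases before to 50 after the start, both strands) were counted as a description. The ETS-type letters CCGGAAG were present for 21 of 59 members (35.6%), against 12.2% of all genes. The letters AGGCCT, the core of the site reported for ZFX, were present for 8 of 59 members (13.6%), against 13.0%. These 8 were RPL6, RPL19, RPL22, RPL27A, RPL37A, RPS12, RPS18 and RPS19. Their median fold in ZFX over control lines was -0.0538 and that of the other 51 members -0.0541, and none of either was called. In RPS18 the letters lie just behind the pyrimidine run, 14 bases from the start, and end the line printed for it above. A match is not a binding site.

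Genes that make or use ribosomes were read from lists, and their calls were not checked at other settings or with arrays left out. Of 4 tested cytosolic ribosomal proteins outside the naming rule, FAU, RPL36AL, RPL22L1 and RPL26L1, 0 were called in ZFX over control lines. In that comparison 1.68% of all features were called. RPL22L1, the paralog of RPL22, was lower than in H9 in every clone, in comparisons that share the H9 arrays. It was at -0.54 in clone 3 (limma adjusted p = 0.00306), -0.74 in clone 2 (adjusted p = 0.000158) and -0.51 in clone 5 (adjusted p = 0.0152). RPL26L1 was lower in clone 2, at -0.31 (adjusted p = 0.0255). Of 76 mitochondrial ribosomal proteins 1 was called in ZFX over control lines, against 1.68% of all features. It was MRPS21, lower, at -0.80 (SE 0.0925, limma adjusted p = 0.000170). Its line means were 11.20 in H9, 11.19 in clone 3, 10.40 in clone 2 and 10.39 in clone 5. The median of the 76 was -0.0283. MRPL57 at -0.29, MRPL21 at -0.27 and MRPS18C at -0.25 were next in size and did not pass (adjusted p = 0.264 to 0.398). Against H9, 9 of the 76 were higher and 13 lower in clone 3, 7 higher and 11 lower in clone 2, and 1 higher and 1 lower in clone 5. Of all features 19.8%, 15.2% and 5.53% were called there. Over clone 3, 4 were higher and 7 lower in clone 2, and 2 higher and 8 lower in clone 5, against 16.3% and 17.1% of all features.

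Of 18 elongation factors and other genes with pyrimidine starts 1 was called in ZFX over control lines, where 1.68% of all features were called. It was VIM, lower, at -1.21 (SE 0.150, limma adjusted p = 0.000244). VIM encodes the intermediate filament vimentin rather than a part of the translation machinery. The median of the 18 was -0.0526, and EEF1G at -0.29, NPM1 at -0.25 and NAP1L1 at -0.20 did not pass. The NPM1 probe was dim, with line means of 4.51 to 4.78. Of 41 genes of ribosome assembly and ribosomal RNA synthesis 0 were called in ZFX over control lines, with a median of -0.0902, and UTP14A was lowest at -0.44 (adjusted p = 0.124). Against H9, 2 of the 41 were higher and 11 lower in clone 2 (median -0.173), 2 higher and 8 lower in clone 3 (median -0.102), and 0 higher and 5 lower in clone 5 (median -0.180). Over all features the median was between -0.0112 and -0.000362 in these comparisons, of which 15.2%, 19.8% and 5.53% were called. Over clone 3, 0 of the 41 were higher and 1 lower in clone 2, and 4 were higher and 2 lower in clone 5. In those pairs 16.3% and 17.1% of all features were called. RRP12 and TSR1, both needed for small subunit maturation, were lower than in H9 in all 3 clones, in comparisons that share the H9 arrays. RRP12 was at -0.51, -0.58 and -0.42 and TSR1 at -0.44, -0.55 and -0.43 in clones 3, 2 and 5 (limma adjusted p from 0.000267 to 0.0215). The other 3 called lower in clone 5 were UTP14A at -0.36, NIP7 at -0.34 and GAR1 at -0.29. BOP1 and FBL were the 2 higher in clone 2, by 0.31 and 0.26, and POLR1E and PES1 the 2 higher in clone 3.

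Of 12 regulators of translation and of ribosomal genes 0 were called in ZFX over control lines (median -0.0310), against 1.68% of all features. MYC was at -0.30 (limma adjusted p = 0.294), RPS6KB1 at 0.23, TSC1 at -0.22 and EIF4EBP1 at 0.20. MYCN, which promotes ribosomal gene transcription, was lower than in H9 in every clone, in comparisons that share the H9 arrays. It was at -0.72 in clone 3 (limma adjusted p = 8.85e-08), -0.58 in clone 2 (adjusted p = 7.4e-06) and -0.49 in clone 5 (adjusted p = 0.000189). Of the other regulators, the S6 kinase gene RPS6KB2 was higher by 0.76 in clone 3 and 0.44 in clone 2 (adjusted p = 1.28e-07 and 0.000625), RPS6KB1 by 0.31 in clone 3 and 0.46 in clone 2, and TSC1 by 0.51 in clone 3. MTOR was lower in clone 3, at -0.42, and MYC in clone 5, at -0.47. In all, 3 of the 12 were higher and 2 lower in clone 3, 2 higher and 1 lower in clone 2, and 0 higher and 2 lower in clone 5, in comparisons where 19.8%, 15.2% and 5.53% of all features were called.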

How the data were processed

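RNA of 8 samples was measured on Illumina bead arrays, and groups and replicate numbers were read from the sample titles. The authors deposited probe intensity on a linear scale, not normalised, judged by array medians that differ, with a detection p-value per probe. The authors also deposited processed values on a log2 scale, whose background step is not given in the sources used here. They served as an alternative. The submitters' processing notes name BeadStudio without a version.

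Intensities were background corrected by normexp (limma 3.58.1 in R 4.3.3, offset 16, with the 759 negative controls that the detection p-values imply), quantile normalised and put on the log2 scale. Of 48802 probes 23280 passed the detection filter (p under 0.05 on 2 or more arrays). Symbols came from the platform annotation, in which 28098 probes have 1 symbol, 13 several and 20691 none. The brightest kept probe of each gene was tested, and unnamed probes singly, in 19124 tests, 12590 of them of named genes. Values of further probes of a gene come from a fit of every kept probe. The fit of ZFX against control lines treated line as a random block in limma (correlation 0.353), and each pair of lines was read from a fit of 4 line means. Both used an intensity trend and Benjamini-Hochberg adjustment over all tests, called at 0.05. The fits were tested on simulated data. Python 3.11.15 with matplotlib 3.10.9 drew the figures.

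Members, gene lists and tests were chosen with earlier results of these data known. Named with values are the 5 highest and 5 lowest members in ZFX over control lines, the 3 highest and lowest in each pair of lines, paralogs ending in L with their parents, X-linked and stalk members, those bound to MDM2 or to inherited anaemias, members whose probes differ by over 0.5, and up to 4 genes of each list. Members and list genes called in a pair beyond these were named with their values in view. Alternatives varied background correction, scaling, the filter on dim probes, the choice of probe, the variance model, the replicate block, and the lines and arrays used. Single-gene values under them were read for members only, not for the genes of the lists.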

Additional observations from a re-analysis of the deposited data

Results flagged for a closer look

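RPL10L differed between the 2 ZFX clones, which were made in the same way. Clone 5 was lower than clone 2, at -1.18 on the log2 scale (SE 0.173, limma adjusted p = 0.000113), with 5.10 and 4.93 in clone 5 against 6.40 and 5.98 in clone 2. With clone 2 as the only ZFX line RPL10L was at 1.01 over the control lines (adjusted p = 0.0415), and with clone 5 as the only ZFX line at -0.17, which did not pass.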

How the results depend on the processing

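The count of members called between ZFX and control lines was 0 with any array left out, 1 with H9 as the only control, 6 with clone 3 as the only control and 1 with clone 2 as the only ZFX line, where 5.70%, 13.9% and 0.816% of all features were called. The median fold of the members there was -0.0577 to -0.0303 with an array left out and -0.143 with median scaling, which moved the median of all features to -0.0369. Leaving out an array gave 5 to 10 calls in clone 3 over H9, 4 to 9 in clone 2 over H9, 0 to 2 in clone 5 over H9, 4 to 9 in clone 2 over clone 3, 3 to 8 in clone 5 over clone 3 and 1 to 2 in clone 5 over clone 2. In the same pairs 12.3% to 20.1%, 8.66% to 15.6%, 3.14% to 5.18%, 10% to 17.4%, 10.9% to 18.2% and 0.973% to 3.98% of all features were called. In that order of pairs, median scaling gave 0, 2, 0, 1 and 0 calls, with 1 in the last pair as before, where 6.32%, 2.92%, 1.07%, 6.89%, 6.72% and, in the last pair, 0.251% of all features were called. A variance model with no intensity trend gave 2, 2, 0, 1, 2 and 1, against 12%, 7.51%, 1.45%, 10.6%, 10.9% and 0.256%. With every probe tested singly the counts of probes called were 17 in clone 3 over H9, 13 in clone 2 over H9, 2 in clone 5 over H9, 14 in clone 2 over clone 3 and 2 in clone 5 over clone 2, against 19%, 14.3%, 5.06%, 15.3% and 2.93% of all probes. No detection filter gave 4 in clone 2 over H9 (5.9% of all), detection on all arrays 11 in clone 2 over clone 3 (23.8%), and the authors' processed values 2 in clone 5 over clone 2 (3.44%). The single-gene values that changed sign were RPL24 in ZFX over control lines at -0.00443 with median scaling and RPL10L at -0.17 with clone 5 as the only ZFX line, and neither passed. The median of the members in clone 3 over H9, -0.0182, was 0.00855 with median scaling and 0.00990 without H9 replicate 1, which also moved it to -0.0270 in clone 2 and -0.0105 in clone 5 over H9. Leaving out clone 3 replicate 1 or replicate 2 put it at -0.00286 and -0.00934 in clone 3 over H9. With either clone 2 array left out it was 0.0431 and 0.0362 in clone 5 over clone 2. Dropping clone 5 replicate 1 gave 0.0601 in that pair, -0.0187 over H9 and -0.0211 over clone 3, and dropping clone 5 replicate 2 gave -0.0259 over H9. With median scaling it was -0.172 in clone 2 over H9, -0.0893 in clone 5 over H9, -0.188 in clone 2 over clone 3, -0.0896 in clone 5 over clone 3 and 0.0923 in clone 5 over clone 2. For the named results, which in the pairs are only genes already called there, 322 at other settings kept their direction and their side of the threshold, 66 lost their call and 6 gained one with another choice of lines. Other members gained calls in the pairs, to 12 in clone 3 over H9 with the authors' processed values and to 10 in clone 2 over clone 3 with those values or without background correction. The causes were not tested.

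With the replicate number as a block 0 members were called between ZFX and control lines and 9, 8, 1, 8, 6 and 1 in the pairs, where RPL34 gained a call in clone 2 over clone 3 (7 to 8 members) and no call was lost. The numbers share only a label, since the replicate differences of 2 lines correlated at -0.00996 to 0.0628. Low signal limits RPL10L, whose intensity of 66.8 to 122 starts close to the array medians of 60.4 to 67.8. With 2 arrays a line, differences of the size of the members' median could not be resolved in a single member.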
